A study of Mus musculus with 2 samples.

Results

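The genes described here are 46 genes of DNA replication and cell division, chosen by symbol from a named list among the 33696 genes counted in each library, and all 46 were found. They were read in droplet single-cell RNA sequencing of mouse liver, with 1 library labelled SLC22A18-/- (the knockout-labelled library) and 1 labelled SLC22A18+/+ (the wild-type library). Slc22a18 is an imprinted gene for a membrane transporter, and the series title ties it to short stature, fatty liver and a beta-catenin and Ascl2 axis. Neither the labels nor the series text gives the strain, age or sex of the mice, how many were used, or which part of the gene was removed, and no treatment is named for either library. Because each group was 1 library, no difference below has a replicate check, no p-value is given, and genotype cannot be told apart from animal, cell preparation or library.

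A dividing cell copies its genome in S phase and separates the copies in mitosis. Before S phase the MCM proteins are loaded on DNA as the replicative helicase, and E2F transcription factors switch on genes for replication and for nucleotide supply. Later the cyclins A and B with the kinase Cdk1 drive entry into mitosis, and a second wave of genes for the spindle, the kinetochore and chromosome condensation is expressed, many of them under the DREAM and MuvB complexes through the cell cycle homology region (CHR) and CCAAT boxes. Hepatocytes of a resting adult liver rarely divide and return to the cycle after injury or loss of tissue, while resident macrophages and lymphocytes divide at low rates.

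The members were placed in 2 sets by their textbook roles. The S-phase set held 16 genes: the helicase subunits Mcm2 to Mcm7, the loading factors Cdc6 and Cdt1, the helicase subunit Gins2, the sliding clamp Pcna, the remodeller Hells, the nucleotide enzymes Rrm1, Rrm2 and Tyms, the transcription factor E2f1, and Uhrf1, which carries DNA methylation through replication. The mitotic set held 26 genes, which were the cyclin group (Ccna2, Ccnb1, Ccnb2, Ccnf, Cdk1), kinases and checkpoint genes (Aurka, Aurkb, Bub1, Bub1b, Plk1, Birc5), kinetochore genes (Cenpe, Cenpf, Knl1, Nuf2, Ndc80), spindle and cytokinesis genes (Tpx2, Kif11, Kif15, Prc1, Hmmr, Anln, Diaph3), and Mki67, Top2a and Ube2c. The other 4 members, in neither set, were the DNA glycosylase Neil3, the ubiquitin ligase Rad18, the histone variant H2ax and the long noncoding RNA Lockd. They lay on 16 chromosomes, and Lockd started 3578 bases after the end of Cdkn1b, which codes for the cyclin-dependent kinase inhibitor p27, on chromosome 6 of GRCm38.

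The sequences around the start sites of the members differed between the sets in how often they held a match. Of these, 5 are shown because they carry the elements named above. Windows of 250 bases before to 50 bases after the start site were taken from RefSeq on GRCm38.p6, and 40 of the 46 members had one (Mcm4, Gins2, Ccna2, Aurkb, Tpx2 and H2ax did not). The windows listed for Cdc6, E2f1 and Mcm7 lay inside the gene as placed by GENCODE, so they were not upstream of it. Capitals mark every match, on either strand, to an E2F word (TTTGGCGC, TTTCCCGC, TTTCGCGC or TTTGCCGC), to the CHR (TTTGAA) or to CCAAT, and overlapping matches run together. Mcm6 and Mcm3 stand for the S-phase set, Ccnb2 and Top2a for the mitotic set, and Cdk1 holds all 3 kinds of match.
Mcm6 (chr1:128359656-128359955, minus strand): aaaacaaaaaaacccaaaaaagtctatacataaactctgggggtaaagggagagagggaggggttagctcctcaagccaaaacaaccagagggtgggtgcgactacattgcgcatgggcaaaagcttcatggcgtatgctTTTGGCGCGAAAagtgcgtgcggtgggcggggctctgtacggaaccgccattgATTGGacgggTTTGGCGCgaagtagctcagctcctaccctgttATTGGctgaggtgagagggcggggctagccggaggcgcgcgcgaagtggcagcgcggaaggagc
Mcm3 (chr1:20820263-20820562, minus strand): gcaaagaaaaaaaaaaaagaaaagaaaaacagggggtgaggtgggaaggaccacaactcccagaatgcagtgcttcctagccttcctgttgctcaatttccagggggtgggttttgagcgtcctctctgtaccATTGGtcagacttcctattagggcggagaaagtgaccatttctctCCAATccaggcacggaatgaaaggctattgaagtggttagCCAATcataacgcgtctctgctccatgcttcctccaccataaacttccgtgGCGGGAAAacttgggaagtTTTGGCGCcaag
Ccnb2 (chr9:70421505-70421804, minus strand): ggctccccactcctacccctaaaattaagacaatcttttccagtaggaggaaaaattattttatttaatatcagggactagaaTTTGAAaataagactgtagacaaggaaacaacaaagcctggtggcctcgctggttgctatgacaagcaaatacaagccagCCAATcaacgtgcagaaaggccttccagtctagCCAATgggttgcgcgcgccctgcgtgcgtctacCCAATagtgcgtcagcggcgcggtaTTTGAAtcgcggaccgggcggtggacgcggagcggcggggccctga
Top2a (chr11:99024140-99024439, minus strand): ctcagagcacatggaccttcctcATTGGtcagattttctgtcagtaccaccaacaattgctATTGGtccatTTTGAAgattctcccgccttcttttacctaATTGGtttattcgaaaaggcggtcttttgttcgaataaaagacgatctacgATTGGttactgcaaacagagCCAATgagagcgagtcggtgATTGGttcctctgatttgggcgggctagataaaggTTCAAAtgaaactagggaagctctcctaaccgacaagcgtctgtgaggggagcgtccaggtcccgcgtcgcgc
Cdk1 (chr10:69352863-69353162, minus strand): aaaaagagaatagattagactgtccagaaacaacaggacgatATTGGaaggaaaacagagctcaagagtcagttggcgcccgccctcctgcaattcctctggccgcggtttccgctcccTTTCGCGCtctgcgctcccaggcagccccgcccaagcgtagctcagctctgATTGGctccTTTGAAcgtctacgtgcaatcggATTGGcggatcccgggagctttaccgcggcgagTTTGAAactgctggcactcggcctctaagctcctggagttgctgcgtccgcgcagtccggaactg
Matches were counted by gene, and a gene with several windows counted when any of them held a match. An E2F word was present for 8 of 14 S-phase genes (57.1%), 2 of 23 mitotic genes (8.70%), and 704 of all 27025 genes (2.61%). The CHR letters were present for 1 of 14 S-phase genes (7.14%), 17 of 23 mitotic genes (73.9%) and 20.2% of all genes. CCAAT was common to both sets, for 9 of 14 (64.3%) and 17 of 23 (73.9%) against 41.1% of all genes. At least 2 copies in 1 window stood for 42.9%, 52.2% and 13.3%. In Mcm6 the E2F words began at bases -110, -106 and -47 from the start site, and in Ccnb2 the CCAAT boxes began at -87, -54 and -21. A match is a description of letters and says nothing of which factor was bound in these cells.

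The libraries held 11741 and 12796 barcodes with 103478998 and 105556354 UMIs (unique molecular identifiers, each a counted RNA molecule), and 11126 knockout-labelled and 12002 wild-type cells were kept. Their median depths were 5856 and 5344.5 UMIs, and 38 barcodes occurred in both libraries. Slc22a18 was read at 2062 UMIs (21.4 counts per 1000000 UMIs, CPM, 95% interval 20.5 to 22.4) in the knockout-labelled library and 2353 UMIs (24.4 CPM, 23.4 to 25.4) in the wild-type library, so its 3′ counts did not mark the libraries apart, and counts outside a deleted part would check nothing. Cells were grouped by clustering without the members and without 146 further cell-cycle genes, so that the members did not define the classes, and 12 classes were named by markers. Of these, 7 had at least 100 cells in each library and were compared, and 10.8% and 12.8% of cells stayed unnamed. Intervals are exact 95% intervals that cover counting error only, and UMIs from a few dividing cells are not independent, so the true uncertainty of a summed level is larger than its interval. CPM from 3′ counts are not scaled by transcript length, so they are compared between libraries and cells, not between genes.

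Over all kept cells the libraries were close. The summed level of the mitotic set was 284 CPM (27374 UMIs) in the knockout-labelled library and 309 CPM (29781 UMIs) in the other, which is a ratio of 0.920 (0.905 to 0.935). The S-phase set was read at 229 and 259 CPM, a ratio of 0.885 (0.869 to 0.901). A gene was called higher or lower when it had at least 20 UMIs in the 2 libraries together, a CPM ratio of at least 2 in either direction and an interval excluding 1. Of all genes tested over all kept cells 1.76% passed, and 0 of the 46 members did. The members' ratios ran from 0.715 for Mcm5 to 1.08 for the mitotic cyclin Ccnb1, and 41 of 46 lay below 1, against 9852 of 20921 for all genes tested.

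By number of UMIs the leading S-phase members were Pcna (68.9 and 73.1 CPM in the knockout-labelled and the wild-type library), Rrm1 (22.2 and 25.1), Mcm3 (21.6 and 25.3), Mcm6 (18.9 and 20.7) and Mcm4 (14.0 and 15.2). Of the mitotic members Mki67, the antigen used to stain dividing cells, was read at 29.99 and 31.6 CPM. Top2a, which untangles sister chromatids, was read at 28.4 and 32.5, the formin Diaph3 at 21.4 and 24.7, Ube2c, the ubiquitin-conjugating enzyme of the anaphase-promoting complex, at 20.4 and 20.3, and Birc5, a subunit of the chromosomal passenger complex, at 18.5 and 18.6. The fewest UMIs were read for Cdc6 (169 and 186), the checkpoint kinase Bub1 (247 and 305) and the kinetochore gene Nuf2 (276 and 276). Every one of these values was within a factor of 1.5 between the libraries.

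The 2 sets were spread over cells in different ways. A UMI of at least 3 different S-phase members was found in 1717 of 11126 knockout-labelled cells (15.4%) and 1902 of 12002 wild-type cells (15.8%). At least 3 different mitotic members were found in 623 (5.60%) and 699 (5.82%). Only 74 and 83 cells held 50% of all UMIs of the mitotic set. To see both sets in cells that neither had picked, cells with a UMI of at least 20 of 65 mitotic genes outside the members were taken, and these are called dividing cells here. There were 219 knockout-labelled (1.97%) and 254 wild-type dividing cells (2.12%), with a median of 19 of 26 mitotic members in each library. They held 6.36% and 7.47% of all UMIs, 74.7% and 74.5% of the UMIs of the mitotic set, and 21.6% and 22.6% of those of the S-phase set.

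Since dividing cells were picked by mitotic genes, mitotic members are bound to gather in them, so the share of each member's UMIs in these cells is a description. For mitotic members it ran from 32.1% and 36.7% for Ccnf, an F-box cyclin, to 90.7% and 89.2% for Hmmr, a spindle protein, and it was at least 50.3% in both libraries for the other 25. For S-phase members it ran from 12.4% and 17.1% for E2f1 and 13.6% and 14.3% for Pcna to 71.6% and 65.0% for Rrm2, the regulated subunit of ribonucleotide reductase. Its partner Rrm1 stood at 23.5% and 23.9%. Uhrf1 (50.9% and 52.8%) was the other S-phase member above 50% in both libraries, and the remaining 14 lay between 12.4% and 41.9%. Neil3 (81.9% and 82.3%) and Lockd (71.5% and 71.4%) sat among the mitotic genes, H2ax was at 51.5% and 49.3%, and Rad18 at 17.9% and 18.0% sat with Pcna and the MCM genes. The plot of these shares shows both libraries in nearly the same order.

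**Figure D1:**
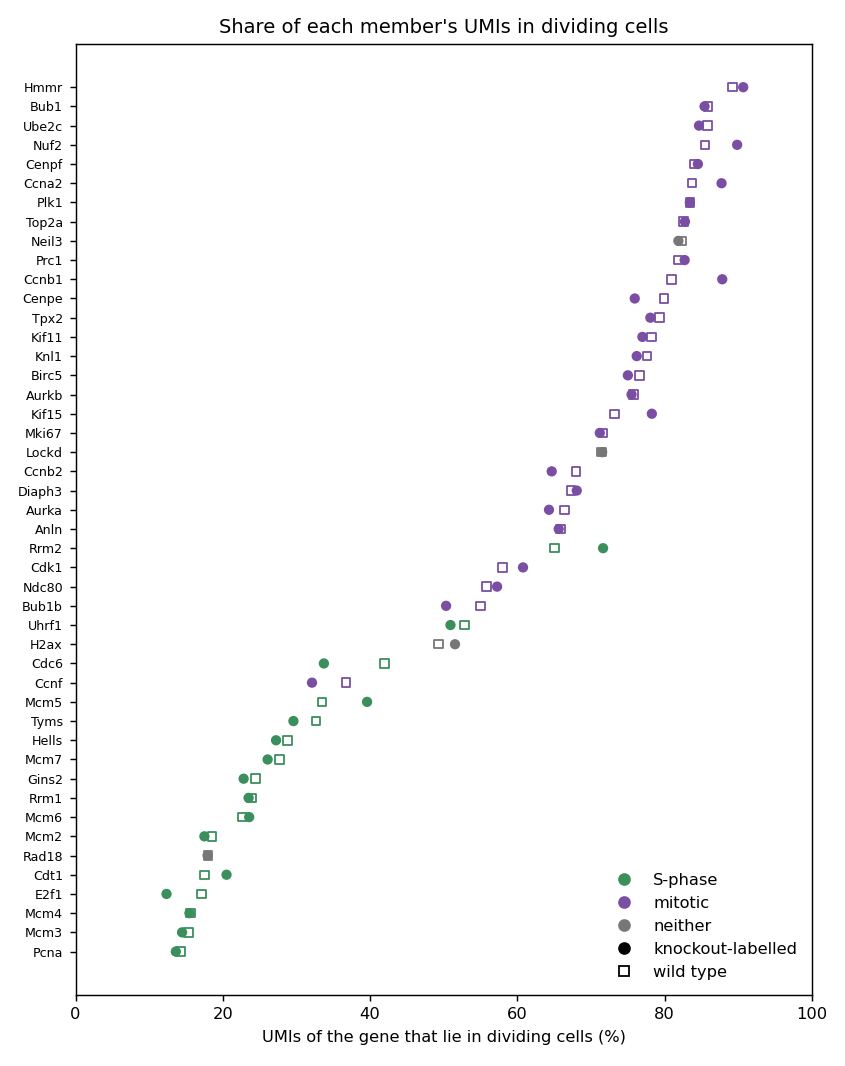
Percent of each member's UMIs that lie in dividing cells (cells with at least 20 of 65 other mitotic genes), 1 row per member, filled circles for the knockout-labelled and open squares for the wild-type library, coloured by set. Of the mitotic members all but Ccnf (32.1% and 36.7%) sit above 50% in both libraries, and of the S-phase members Rrm2 (71.6% and 65.0%) and Uhrf1 (50.9% and 52.8%) do.

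Pcna was the S-phase member found most widely outside dividing cells. It had a UMI in 70.3% and 65.0% of dividing cells and in 28.5% and 27.9% of all others. The next were Mcm3 (12.1% and 12.3% of others) and Rrm1 (11.6% and 11.9%), while Rrm2 (1.37% and 2.03%), Uhrf1 (1.47% and 1.73%) and Cdc6 (0.926% and 0.834%) were rare there. Top2a was found in 89.95% and 90.6% of dividing cells and in 3.16% and 3.40% of others. Cells with a UMI of at least 5 S-phase members numbered 369 and 485 outside the dividing cells, and the data do not separate cells early in S phase from deep cells that express these genes at a low level. Dividing cells were deeper than the rest, with median depths of 17809 and 19703 UMIs against 5762 and 5212, and what depth adds to the choice of cells was not tested beyond the thinned shares given below. The number 20 was set after a first choice of 3 genes took 47.0% and 45.8% of all cells.

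Hepatocytes, the 3111 knockout-labelled and 3242 wild-type cells with hepatocyte markers, had lower levels of both sets in the knockout-labelled library. The mitotic set was read at 145 CPM (141 to 150) in the knockout-labelled library and 279 CPM (273 to 286) in the wild-type one, so the ratio was 0.520 (0.501 to 0.541). The S-phase set was at 97.4 and 150 CPM, a ratio of 0.647 (0.616 to 0.680). All 46 members had a ratio below 1, from 0.313 for Neil3 to 0.943 for Rad18, with a median of 0.537 against 1.03 for all genes tested. The size rule was passed by 17 members as lower and by 0 as higher, while it called 1.13% of all genes tested in hepatocytes lower and 1.12% higher.

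The lower calls took in both waves. In the S-phase set they were Mcm5, Cdc6, Cdt1, Rrm2 and Uhrf1, with Rrm2 at 5.14 against 13.9 CPM and Cdt1 at 2.14 against 5.42 CPM. Mcm6 (9.94 and 14.5 CPM), Mcm4 (3.45 and 4.13), Tyms (15.3 and 19.9) and Pcna (13.6 and 23.8) were lower by less than a factor of 2. In the mitotic set 10 of 26 were called lower: the cyclin Ccna2, the checkpoint kinase Bub1, the kinetochore genes Knl1 and Ndc80, the spindle genes Tpx2 and Kif15, the cytokinesis genes Anln and Diaph3, and Mki67 and Top2a. Mki67 stood at 9.57 CPM in 102 of 3111 cells against 24.0 CPM in 221 of 3242 cells, a ratio of 0.398 (0.344 to 0.461). Top2a stood at 10.1 and 24.4 CPM (0.411, 0.356 to 0.475), Diaph3 at 10.5 and 26.2 CPM (0.402, 0.349 to 0.462), and Knl1 at 5.36 and 12.99 CPM (0.413, 0.338 to 0.503). Of the members in neither set, Neil3 was at 3.001 and 9.58 CPM and Lockd at 5.40 and 15.2 CPM, both lower by the rule, and H2ax was at 5.74 and 11.4 CPM. In the plot of member ratios every hepatocyte point lies left of 1.

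**Figure D2:**
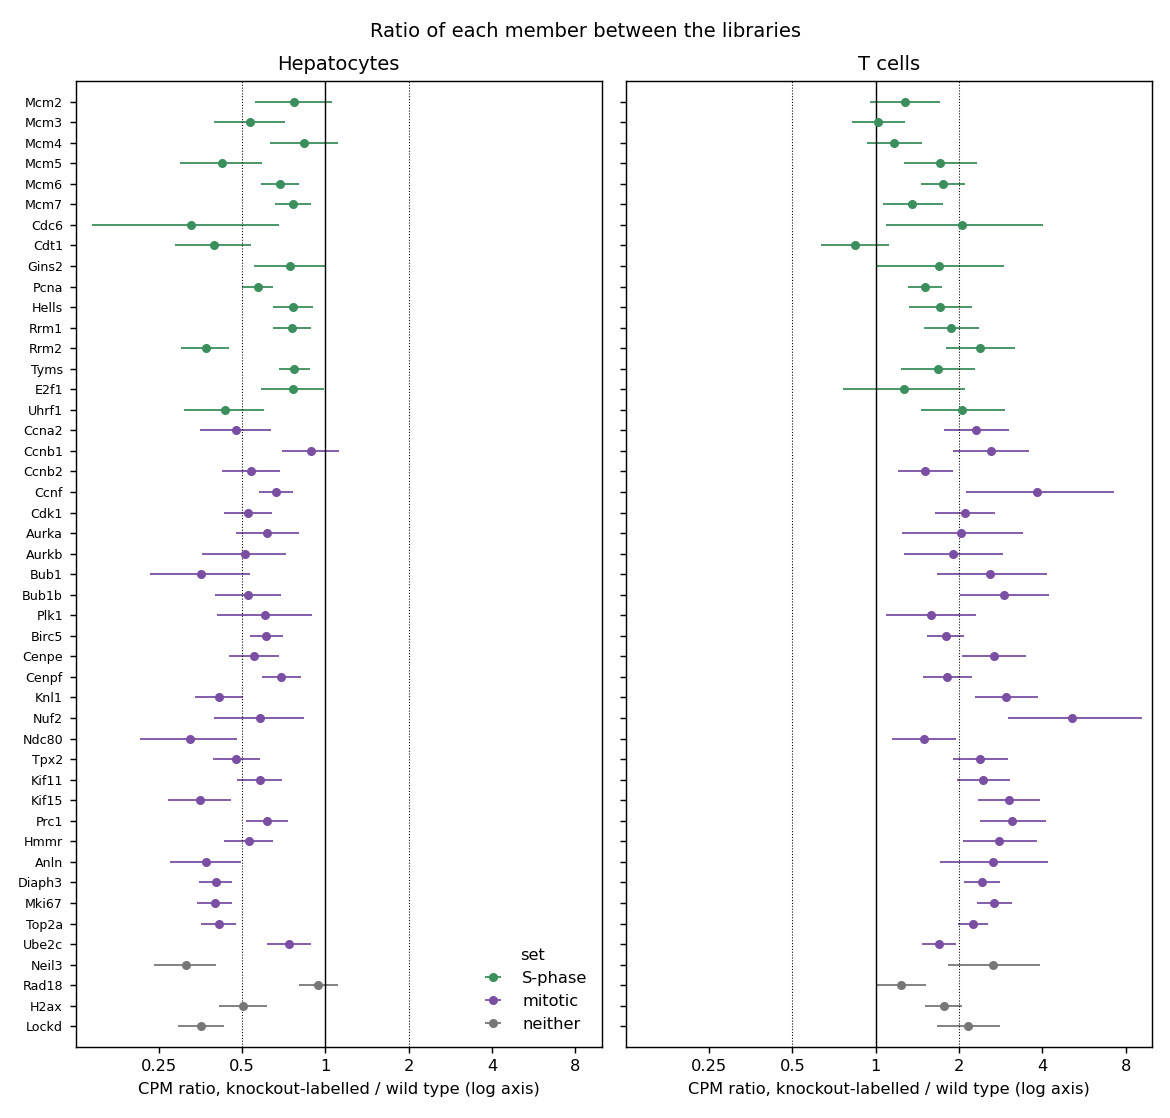
CPM ratio of each member, knockout-labelled over wild type, in hepatocytes (left) and T cells (right) on a log axis, with exact 95% intervals for counting error and dotted lines at the ratios of 0.5 and 2 of the size rule. All 46 members lie below 1 in hepatocytes, and 45 of 46 lie above 1 in T cells.

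Fewer hepatocytes carried the mitotic program in the knockout-labelled library. At least 3 mitotic members were found in 99 of 3111 cells (3.18%, 2.59 to 3.86) against 256 of 3242 (7.90%, 6.99 to 8.88), a ratio of 0.403 (0.316 to 0.510). With at least 10 members the counts were 27 and 96 cells, and dividing hepatocytes numbered 30 (0.964%) and 99 (3.05%), a ratio of 0.316 (0.203 to 0.479). The neutrophil class, made of cells that have left the cycle, had the mitotic set in 1 of 78 and 0 of 99 cells at median depths of 2630 and 2583 UMIs, where 0 of 99 allows a share of up to 3.03% by the limit of 3 counts. Median depths of hepatocytes were 5448 and 5065 UMIs, so the deeper library had the lower share. When each hepatocyte was thinned to 2832 UMIs, leaving out 523 and 747 shallower cells, the shares were 1.35% and 5.37%.

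Within dividing hepatocytes the libraries were closer. The median cell held 34.5 UMIs of the mitotic set in the knockout-labelled library and 41 in the wild-type library, with median depths of 16019.5 and 16708 UMIs. Top2a was found in 80.0% and 89.9% of them, Mki67 in 66.7% and 82.8%, Lockd in 93.3% and 81.8%, and Pcna in 40.0% and 43.4%. Other mitotic members were found more often in the knockout-labelled library, among them Ccnb1 (63.3% and 37.4%), Cdk1 (66.7% and 48.5%) and Ube2c (56.7% and 44.4%). The summed mitotic level of dividing hepatocytes was 2307 and 1883 CPM (ratio 1.23, 1.17 to 1.29), with 923 of the knockout-labelled UMIs in 1 cell. The next highest knockout-labelled cell held 255. The ratio among dividing hepatocytes without the highest cell was not computed, and the medians above lie the other way, so no direction is read from it. Outside the dividing cells, the mitotic set was lower in the knockout-labelled library, at 57.4 CPM against 90.3 CPM (ratio 0.636, 0.595 to 0.679). S-phase UMIs were 13.6% of the UMIs of both sets in dividing hepatocytes of the knockout-labelled library and 19.7% in those of the wild-type library. The knockout-labelled share includes the highest cell, with 923 mitotic and 92 S-phase UMIs, and was not computed without it. In the plot of mitotic members per cell, 2 hepatocytes of each library had all 26 members, while at least 10 members were found in 27 and 96 hepatocytes.

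**Figure D3:**
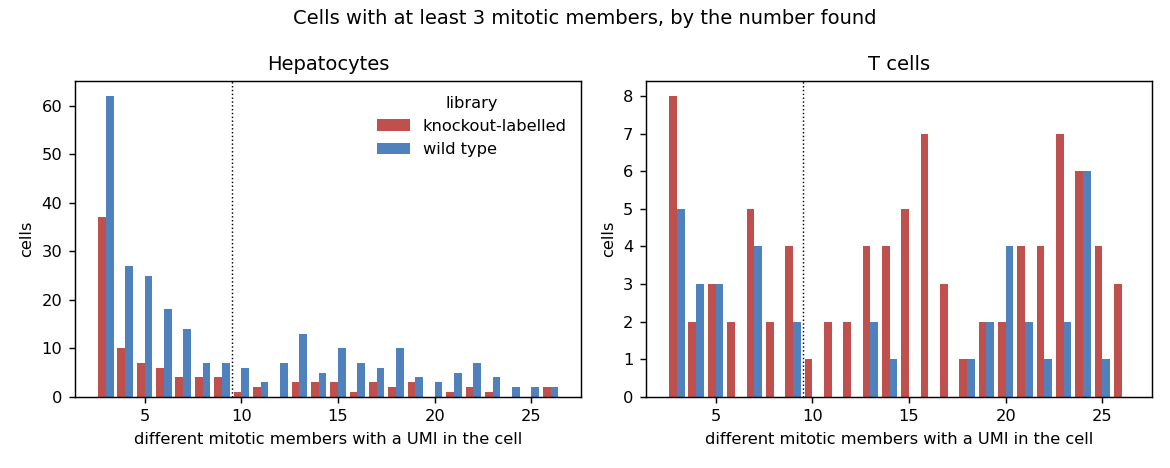
Number of cells by how many different mitotic members had a UMI in the cell (3 or more of 26), in hepatocytes (left) and T cells (right), red bars for the knockout-labelled and blue for the wild-type library, with a dotted line below 10 members. To the right of the line lie 27 and 96 hepatocytes, and 61 and 22 T cells.

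The dividing hepatocytes carried hepatocyte markers. The summed level of 10 hepatocyte markers was 32496 and 30591 CPM in dividing hepatocytes against 22645 and 26354 CPM in other hepatocytes, beside 6516 and 5571 CPM in non-dividing T cells, a class that should lack these transcripts. Per cell it ran from 7633 to 78724 CPM with a median of 17134 in the knockout-labelled library, and from 7277 to 100551 CPM with a median of 14332 in the wild-type library. The medians of other hepatocytes were 19624 and 19625 CPM, so the median dividing hepatocyte had a lower marker level than the median of the rest, while the summed level was higher. T cell markers summed to 76.8 and 18.7 CPM, B cell markers to 15.4 and 74.9 CPM, and Kupffer cell markers to 176 and 223 CPM. Doublet calls, which were left out, had at least 10 mitotic members in 5 knockout-labelled and 7 wild-type barcodes. Among kept cells the median doublet scores were 0.0793 and 0.0794 in dividing hepatocytes, against 0.0398 and 0.0407 in other hepatocytes. What doublets below the limit add was not tested.

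The hepatocyte difference had the same direction in each cluster and was larger without the highest cell of each library. In the 4 hepatocyte clusters the share of cells with the mitotic set was 0.661% against 1.87%, 4.95% against 12.2%, 11.2% against 33.5%, and 2.21% against 5.24%. A single knockout-labelled hepatocyte of 182756 UMIs held 923 of the 3874 mitotic UMIs (23.8%), among them 64 of the 133 UMIs of Ccnb1. Without the highest cell of each library the mitotic ratio was 0.410 and 31 members passed as lower, and Ccnb1 stood at 2.61 and 5.51 CPM where all cells gave 4.99 and 5.63. Clustering with the cell-cycle genes left 11 members lower at a mitotic ratio of 0.644, and it moved 19 of 30 and 64 of 99 dividing hepatocytes to a mixed cluster without a name. Leaving out the cluster with most mitotic UMIs left 8 members lower at a ratio of 0.676. For these changed settings the share of all genes passing was not computed.

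Other genes of the cycle were read in hepatocytes from lists outside the members. Of 52 other S-phase genes 8 were lower and 0 higher, with Dna2, a nuclease and helicase of replication, at a ratio of 0.965. Of 64 other mitotic genes tested 19 were lower and 0 higher, with Hjurp at 1.06 and Cks2 at 0.819. Foxm1, a transcription factor of the mitotic wave and named after its value was seen, had 16 and 75 UMIs (0.223, 0.121 to 0.386). Of 13 tested cell-cycle inhibitors, pocket proteins and p53 targets 0 passed, with Mdm2 at 1.01 and Rbl2 at 1.15. The last list held 14 G1 genes, which included cyclins, kinases, E2F factors and the transcription factor Myc. Of these only Myc passed, as higher, at 26.8 against 3.41 CPM (7.86, 6.34 to 9.84), and Ccnd3 and Tfdp2 stood at 0.967 and 1.16.

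T cells, 764 knockout-labelled and 784 wild-type, had higher levels of both sets in the knockout-labelled library, and of mitotic genes most. The mitotic set was read at 1766 CPM (1722 to 1810) against 788 CPM (760 to 817), a ratio of 2.24 (2.14 to 2.34). The S-phase set stood at 686 and 458 CPM, a ratio of 1.496 (1.41 to 1.59). The rule called 24 of 46 members higher and 0 lower, against 2.09% of all genes tested in T cells as higher and 0.778% as lower. Of these, 19 were mitotic, 3 were S-phase genes (Cdc6, Rrm2 and Uhrf1), and the others were Neil3 and Lockd. The median ratio was 2.43 in the mitotic set, 1.68 in the S-phase set and 1.03 over all genes tested, and Cdt1 at 0.839 (0.631 to 1.11) was the 1 member below 1.

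Among the T cell calls, Top2a stood at 225 CPM in 94 cells against 101 CPM in 70 cells, a ratio of 2.24 (1.98 to 2.54). Mki67 was at 190 and 70.6 CPM (2.68, 2.33 to 3.10), Diaph3 at 157 and 65.1 CPM (2.42, 2.08 to 2.82), and the spindle motor Kif11 at 76.7 and 31.5 CPM (2.44, 1.96 to 3.05). Tpx2, which activates Aurora A on the spindle, was at 72.0 and 30.2 CPM, and Knl1, the scaffold of the outer kinetochore, at 65.0 and 21.96 CPM. Nuf2 had the largest ratio, 5.11 (3.002 to 9.18), from 82 and 17 UMIs. The helicase genes were nearer to 1, with Mcm3 at 46.2 and 45.2 CPM (1.02, 0.820 to 1.27), Mcm4 at 45.9 and 39.4 CPM, Mcm6 at 88.2 and 50.5 CPM and Pcna at 135 and 89.9 CPM (1.5004, 1.30 to 1.73). H2ax (129 and 73.3 CPM) and Rad18 (57.7 and 46.8 CPM) did not reach a factor of 2.

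More T cells were in division in the knockout-labelled library. At least 3 mitotic members were found in 87 cells (11.4%, 9.22 to 13.9) against 39 (4.97%, 3.56 to 6.74), a ratio of 2.29 (1.55 to 3.43), and dividing T cells numbered 56 (7.33%) and 21 (2.68%), a ratio of 2.74 (1.63 to 4.76). The share with at least 3 S-phase members was 14.4% and 10.8%. Knockout-labelled T cells were the shallower, with median depths of 3293.5 and 4519.5 UMIs, and after thinning to 1155 UMIs, leaving out 166 and 144 cells, the shares with the mitotic set were 10.7% and 3.91%. In the 3 T cell clusters the shares were 7.26% against 2.08%, 19.7% against 7.92%, and 8.50% against 4.66%. The first of these, of low depth (medians of 1214 and 1180 UMIs), made up 48.7% and 36.7% of the class, so the libraries differed in the mix of T cells too.

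Per dividing T cell the libraries differed less than in the number of such cells. The median dividing T cell held 93 and 127 UMIs of the mitotic set and 25 and 27 of the S-phase set, at median depths of 14927 and 17622 UMIs, and their summed mitotic levels were 6903 and 5955 CPM. Mki67 was found in 98.2% and 100% of them. The S-phase share of the UMIs of both sets was 20.9% and 21.4% in dividing T cells, against 62.2% and 70.2% in other T cells. Their T cell markers summed to 4243 and 3967 CPM, beside 3639 and 4061 CPM in other T cells. NK cell markers summed to 1553 and 580 CPM in them, beside 602 and 555 CPM in other T cells, endothelial markers to 395 and 1246 CPM, beside 595 and 518, and Kupffer cell markers to 514 and 190 CPM, beside 367 and 286. Median doublet scores were 0.0977 and 0.124 in dividing T cells, against 0.0182 and 0.0209 in other T cells. The part of these markers and scores in the difference was not tested.

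The calls of members in T cells rest on dividing cells being kept in the class. When the clustering used the cell-cycle genes, 55 of the 56 knockout-labelled and 21 of the 21 wild-type dividing T cells went to a cluster of 109 cells that stayed unnamed. The T cells left had a mitotic ratio of 1.06 (0.897 to 1.26) with 0 members past the rule. In the main clustering, T cells outside the dividing cells had the mitotic set at 207 and 132 CPM, a ratio of 1.57 (1.38 to 1.78). From the other lists, 36 of 62 tested mitotic genes and 9 of 52 S-phase genes were higher in T cells and 0 lower. The 2 of most UMIs were Hmgb2 (1.65) and Smc4 (0.970) in the first list, and Atad2 (1.17) and Nasp (1.34) in the second. Of the inhibitors Cdkn1c was higher from 22 and 10 UMIs, and of the G1 genes E2f2 was higher at 24.6 and 11.4 CPM (2.17, 1.49 to 3.20). Both were named after their values were seen.

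**Figure D4:**
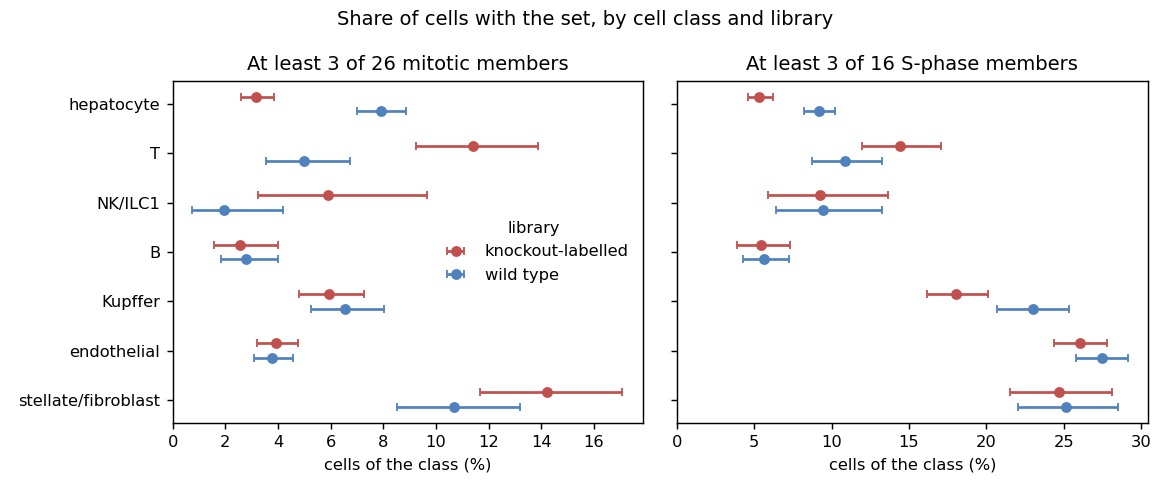
Percent of cells with a UMI of at least 3 mitotic members (left) and at least 3 S-phase members (right) in the 7 compared classes, red for the knockout-labelled and blue for the wild-type library, with exact 95% intervals for counting error. Hepatocytes (3.18% and 7.90%) and T cells (11.4% and 4.97%) stand apart between the libraries in opposite directions in the left panel.

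NK cells and type 1 innate lymphoid cells, which shared a class, pointed the same way as T cells but from few cells. The mitotic set was read at 978 and 464 CPM in 238 and 307 cells, a ratio of 2.11 (1.90 to 2.34). The share with the set rested on 14 against 6 cells (5.88% and 1.95%), and dividing cells numbered 8 and 2. Markers of the 2 wild-type dividing cells went against the name of the class, with 9149 CPM of endothelial and 1163 CPM of NK markers against 319 and 8139 CPM in the rest of the class. The rule called 16 of 38 tested members higher, where 1.25% of all genes tested in this class were, and 13 of the 16 were mitotic. The 6 of most UMIs were Mki67 (88.7 and 43.3 CPM), H2ax (92.7 and 38.5), Ube2c (95.7 and 28.9), Birc5 (85.7 and 18.5), Kif11 (67.5 and 30.5) and Cenpf (63.5 and 26.5). The single cell highest in the mitotic set held 44.6% of these UMIs in the wild-type library and 18.9% in the knockout-labelled library. All 8 knockout-labelled dividing cells lay in 1 cluster and both wild-type ones in the other, so without the first cluster the ratio turned to 0.0727, and at resolution 0.5, where the second cluster was not in the class, it was 9.68.

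Kupffer cells, macrophages that live in the sinusoids, differed in the S-phase set more than in the mitotic set. The S-phase set stood at 251 CPM in 1484 knockout-labelled cells and 362 CPM in 1297 wild-type cells, a ratio of 0.695 (0.665 to 0.727). The mitotic set was at 219 and 266 CPM (0.821, 0.781 to 0.863). The rule called 6 members lower, against 1.10% of all genes tested in Kupffer cells, and 5 of them were S-phase genes. These were Mcm2 (7.75 and 16.6 CPM), Mcm5 (9.38 and 20.1), Hells (5.39 and 11.7), Rrm2 (3.77 and 8.31) and Uhrf1 (3.99 and 11.6), and the mitotic one was Kif15 (5.32 and 10.7). Mki67 was at 34.3 and 35.2 CPM, and Pcna at 105 and 126 CPM.

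At least 3 S-phase members were found in 18.1% and 23.0% of Kupffer cells, a ratio of 0.786 (0.664 to 0.930), and at least 10 in 12 and 34 cells (0.308, 0.145 to 0.611). The share with the mitotic set was 5.93% and 6.55% (0.905, 0.664 to 1.23), and dividing Kupffer cells numbered 19 and 26. In those cells the S-phase set was 23.7% and 33.3% of the UMIs of both sets, and the median cell held 21 and 46.5 S-phase UMIs at depths of 24414 and 23600.5 UMIs.

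Endothelial cells, 2555 and 2734, had the summed levels nearest to equal among the 7 compared classes. The mitotic set was at 241 and 258 CPM (0.931, 0.899 to 0.965), the S-phase set at 296 and 302 CPM (0.979, 0.948 to 1.01), and 0 of 46 members passed where 1.37% of all genes tested in endothelial cells did. The mitotic set was found in 3.91% and 3.77% of cells and the S-phase set in 26.1% and 27.4%. Mxd3, Stmn1, Ska1 and Knstrn, genes of dividing cells that were not among those left out of the clustering, were leading genes of 1 endothelial cluster. This cluster of 28 and 32 cells had the mitotic set in 28 and 31 of them, at 7830 and 8375 CPM, and it held 26 of the 34 and 27 of the 41 dividing endothelial cells. Elsewhere the S-phase set was the larger part, with 80.1% and 81.4% of the UMIs of both sets in non-dividing endothelial cells.

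In B cells (739 and 1009) the sets pointed opposite ways at small size, with the mitotic set at 464 and 564 CPM (0.823, 0.766 to 0.885) and the S-phase set at 390 and 343 CPM (1.14, 1.04 to 1.24). Lower by the rule were Ccnb1 (5.57 and 13.7 CPM), Cenpe (9.95 and 21.02), Cenpf (13.9 and 31.9) and Hmmr (6.37 and 13.9), 4 of 45 tested where 1.54% of all genes tested in B cells were lower. Dividing B cells numbered 11 in each library. Plasma cell markers summed to 5195 and 4592 CPM in them against 765 and 489 CPM in other B cells, while B cell markers were lower in them, at 4562 and 8056 against 12385 and 12986 CPM. The mitotic ratio turned to 1.04 when each cell was weighted equally, so no direction is read from it.

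In the class of stellate cells and fibroblasts (676 and 720) the mitotic set was at 160 and 190 CPM (0.840, 0.789 to 0.895) and the S-phase set at 154 and 173 CPM (0.889, 0.833 to 0.949). Only Ube2c was called, as lower, at 3.75 and 9.56 CPM, where 1.12% of all genes tested in this class were lower. The share with the mitotic set was 14.2% and 10.7%, and after thinning to 2248 UMIs it was 1.80% and 1.78%. Dividing cells of this class had median depths of 52452 and 50413 UMIs, and a median of 1170 and 936 CPM of stellate and fibroblast markers against 7705 and 9258 CPM in the rest of the class, so their markers went against the name of the class.

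The balance of the sets differed between the 7 compared classes, as the plot of both levels shows. T cells, highest in the mitotic set in both libraries, and the NK class had S-phase UMIs at 27.98% and 26.96% of both sets in the knockout-labelled library and at 36.8% and 39.4% in the wild-type library. Endothelial cells stood at 55.2% and 53.9%, Kupffer cells at 53.5% and 57.6%, and hepatocytes, lowest in both sets in the knockout-labelled library, at 40.1% and 35.0%. These are descriptions of 2 libraries, and they were not tested.

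**Figure D5:**
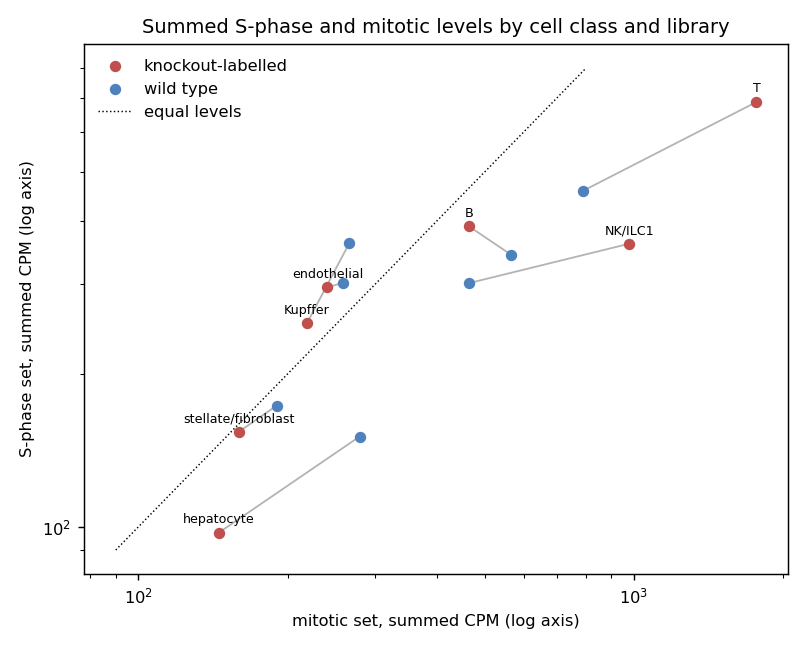
Summed CPM of the S-phase set against that of the mitotic set in the 7 compared classes on log axes, red for the knockout-labelled and blue for the wild-type library, with a grey line joining the libraries of a class and a dotted line of equal levels. Knockout-labelled T cells have the highest mitotic level (1766 CPM, with 686 CPM of the S-phase set), and knockout-labelled hepatocytes the lowest levels of both sets (145 and 97.4 CPM).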

How the data were processed

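Per the labels' protocols, libraries came from the v3 kit of Chromium 3′ chemistry. The deposited values are counts of UMIs for each gene in each barcode, not normalized, written by Cell Ranger 8.0.1 per the file headers. Per the submitters' processing notes, Cell Ranger, STAR and the mm10 build were used. The other deposited files hold gene and barcode names.

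Cells with at least 500 UMIs, at least 300 genes and at most 20% mitochondrial UMIs were kept. Doublets were called with Scrublet in scanpy 1.11.5 in each library alone (expected rate 8%), with 332 and 429 calls removed. The 2 libraries were clustered jointly, with no batch integration, on 2000 variable genes that left out the members and 146 other cell-cycle genes, with 30 components, 15 neighbours and Leiden resolution 1.0, which gave 32 clusters. Clusters were named by the highest-scoring marker list. They stayed unnamed at a median doublet score of at least 0.15, or with fewer than 3 markers in 10% of cells. The same held with a second class scoring 1.5 or more and 0.70 or more of the top class, or with leading genes of another class. Clusters of low median depth without own markers among their leading genes stayed unnamed too. Free RNA was not subtracted.

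Counts were summed per class and library and scaled to CPM. Intervals are exact (Poisson for CPM, Clopper-Pearson for shares and ratios, 95%) and cover counting error only. For thinning, UMIs were drawn from each cell down to its class's 20th percentile of depth. The size rule was tested on simulated counts, drawn independently for each gene. That simulation cannot show how the rule behaves for genes whose UMIs come from a few dividing cells. With 1 library per group no test was run. Genes were placed with GENCODE vM21 on GRCm38. The members and lists were chosen with earlier results of these data known, and the count of 20 other mitotic genes after seeing the data. All members were accounted for. Values are given for those past the size rule (up to 6 per class and direction), the 5 of each set with most UMIs, the 4 in neither set and those with fewest UMIs, and further members beside them as examples chosen after their values were seen.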

Additional observations from a re-analysis of the deposited data

Results flagged for a closer look

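The 2 libraries differed in opposite directions in different cell classes, with intervals of the ratio on opposite sides of 1. The ratio of the summed mitotic set, knockout-labelled over wild type, was 2.24 in T cells and 2.11 in the NK and type 1 innate lymphoid class. It was 0.520 in hepatocytes, 0.821 in Kupffer cells, 0.823 in B cells, 0.840 in stellate cells and fibroblasts, and 0.931 in endothelial cells. For the summed S-phase set the ratio was 1.496 in T cells, 1.20 in the NK class and 1.14 in B cells, and 0.647 in hepatocytes, 0.695 in Kupffer cells and 0.889 in stellate cells and fibroblasts. The share of cells with at least 3 mitotic members had a ratio of 2.29 in T cells and 3.01 in the NK class against 0.403 in hepatocytes. With 1 library per group none of these differences between classes was tested. Some processing settings, given below, turned the direction of the mitotic ratio in B cells, Kupffer cells, endothelial cells and the NK class. Some also turned that of the S-phase ratio in the NK class and in stellate cells and fibroblasts. Class names were rebuilt from markers here, and all classes of a library share its preparation.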

How the results depend on the processing

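No paired analysis was possible because each group was 1 library, and for the same reason no replicate could be left out. A tally took all results over all kept cells, and the mitotic results and member counts of T cells and hepatocytes. In it 85 recomputed values moved by less than their interval, or by less than 1.5 times for a count. Another 28 moved by more and 0 reversed. Counts could not be labelled reversed, and neither could ratios whose main interval held 1. The S-phase results of T cells and hepatocytes were outside the tally. Their summed ratios ran from 1.01 to 1.55 in T cells and from 0.626 to 0.759 in hepatocytes. Weighting each cell equally gave mitotic ratios of 0.942 over all kept cells, 2.50 in T cells and 0.427 in hepatocytes, and an S-phase ratio of 0.931 over all kept cells. Over all kept cells the ratio of the share with the S-phase set was 0.840 with at least 5 members and 0.739 after thinning, and the mitotic ratio was 0.903 without the highest cell of each library. In T cells the share ratio was 1.49 with at least 2 members, and the size rule at a ratio of 1.5 called 38 members. Clustering with the cell-cycle genes gave a T cell mitotic ratio of 1.06, a share ratio of 1.5 and 0 members, since nearly all dividing T cells left the class, and without the T cluster with most mitotic UMIs the ratio was 2.64. In hepatocytes the mitotic ratio was 0.462 with doublet calls kept, 0.454 with at most 10% mitochondrial UMIs, 0.410 without the highest cell, 0.475 at resolution 2.0, 0.644 with the cell-cycle genes, 0.559 with the same cluster weights, and 0.676 without the cluster with most mitotic UMIs. The hepatocyte share ratio was 0.602 with at least 2 members, 0.293 with at least 10, 0.316 for cells picked by 20 other mitotic genes and 0.252 after thinning. The number of members lower in hepatocytes was 33 at a ratio of 1.5, 31 without the highest cell, 11 with the cell-cycle genes and 8 without that cluster. The share of all genes passing was not computed under these changed settings, so the counts of members in T cells and hepatocytes have no background here.

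In the smaller differences the direction depended on the processing, and the cause was not tested. The B cell mitotic ratio became 1.04 with each cell weighted equally, 1.22 with the cell-cycle genes and 1.54 without the cluster with most mitotic UMIs. With the cell-cycle genes in the clustering the mitotic ratio was 1.01 in Kupffer cells and 1.01 in endothelial cells. In the NK class it was 0.0727 without the cluster with most mitotic UMIs, where the S-phase ratio was 0.612, and 9.68 at resolution 0.5. The S-phase ratio of stellate cells and fibroblasts was 1.01 at resolution 0.5, 1.01 with the same cluster weights and 1.004 without the cluster with most mitotic UMIs. Settings that use at least 10 members, 20 other mitotic genes, the highest cell, cluster weights or a left-out cluster were chosen after seeing the data. The NK class rests on 8 and 2 dividing cells.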
